A study of Mus musculus with 20 samples.

Results

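The mouse major histocompatibility region was taken as the 3.2 Mb from 34 Mb to 37.2 Mb of chromosome 17 in the mm9 build, and every deposited peak that touched it was counted as a member. It held 6023 of the 4480164 peaks in 10 peak lists. No peak crossed either edge of the region, and no peaks overlapped within a list. The 2 Mb on each side, from 32 to 34 Mb and from 37.2 to 39.2 Mb, served as surroundings, and the region was described in 32 steps of 100 kb. The covered share of a step, in percent, is the part of its length that lies under a peak of the list.

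The lists came from chromatin immunoprecipitation followed by sequencing in mouse embryonic fibroblasts, primary cells of C57BL/6 embryos at stage E13.5 used at passage 4. They were wild type (WT) or of the genotype SS, a mutant whose alleles the labels do not name. The retinoblastoma protein pRb, with 5 antibodies named in its label, and the histone mark H3K27me3 were each assayed in proliferating and arrested cells of both genotypes. Ezh2 was assayed in both genotypes after serum deprivation only. Growth was in 10% serum, and arrest of the H3K27me3 and Ezh2 cultures was by 0.1% serum for 72 h. For arrested pRb the labels give that treatment in one field and arrest by confluence in another. The cultures are not said to be clones or pools of embryos, and the labelled cell type was not checked against marker genes, because no peak could be assigned to a gene. Every group was 1 library, so differences carry no replicate error and no test was possible. Sequencing depth is unknown from the lists, and the inputs, 10 further libraries, were not analysed here.

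The region is a dense stretch of immune genes. Class I molecules, such as H2-K1 and H2-D1, present peptides from inside the cell to cytotoxic T cells, and class II molecules, such as H2-Ab1, H2-Aa and H2-Eb1, present peptides taken up from outside to helper T cells. Tap1 and Tap2 form the peptide transporter, Psmb8 and Psmb9 are immunoproteasome subunits, C4b, C2 and Cfb are complement components, and Tnf, Lta and Ltb are cytokines of the tumour necrosis factor family. Many of these genes are silent or low in unstimulated fibroblasts and are switched on by interferon or in specialised immune cells. H3K27me3 is a mark of repressed genes that is written by Polycomb repressive complex 2, of which Ezh2 is a catalytic subunit. pRb binds E2F transcription factors and restrains the cell cycle, and it is most active in cells that have left it.

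In the gene order of RefSeq for the assembly GRCm38.p6, which is not the build of the peaks, H2-K1 and Ring1 come first, followed by H2-Oa, H2-DMa, H2-DMb1, Psmb9, Tap1, Psmb8, Tap2, H2-Ob and the class II genes. Notch4, Ager, Tnxb, the complement genes and the tumour necrosis factor genes come next, then H2-D1, the H2-Q genes, Pou5f1, the H2-T genes and the H2-M genes. This order runs over 169 protein-coding genes from H2-K1 to H2-M2, of which 35 have H2 symbols and 16 are olfactory receptor genes. The 30 genes that follow H2-M2 are all olfactory receptor genes. The order is given as background: its positions were not carried over to mm9, so no step or domain is tied to a gene.

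H3K27me3 set the region apart from its surroundings, whereas pRb and Ezh2 coverage differed far less. In proliferating WT cells 308 H3K27me3 peaks covered 36.3% of the region, against 17.9% of the 2 Mb before it, 3.07% of the 2 Mb after it and 9.48% of the autosomes outside it. In proliferating SS cells 312 peaks covered 38.6%, against 19.7%, 3.79% and 11.4%. In arrested WT cells 1013 peaks covered 16.0%, against 10.1%, 5.35% and 7.47%. In arrested SS cells 501 peaks covered 22.9%, against 8.88%, 1.58% and 6.43%. The region thus had 3.84, 3.37, 2.14 and 3.55 times the autosomal share in these 4 lists, and 3.47, 3.28, 2.07 and 4.37 times the share of both sides combined. Among 753 autosomal tiles of the same length it ranked 5, 8, 4 and 10 from the most covered. The median tile of the proliferating WT list was covered to 7.30%, and the middle of its range, from the 10th to the 90th percentile, ran from 0.914% to 22.3%.

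The pRb lists covered the region about as much as other autosomal sequence, or slightly more. In arrested cells 582 WT peaks covered 3.55% and 804 SS peaks covered 5.49% of the region, beside 3.07% and 5.46% of the other autosomes. In proliferating cells 114 WT peaks covered 0.522% and 139 SS peaks covered 0.655%, beside 0.456% and 0.619%. The region ranked 58, 439, 166 and 335 of 753 tiles in these lists. Its arrested WT share lay just above the 90th percentile of tiles, 3.52%. Ezh2 coverage was slightly below that of the surroundings in both genotypes. It was 2.81% with 894 peaks in WT and 4.51% with 1356 peaks in SS cells, or 0.780 and 0.851 times the share of both sides, and the region ranked 666 and 618 of 753 tiles.

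**Figure D1:**
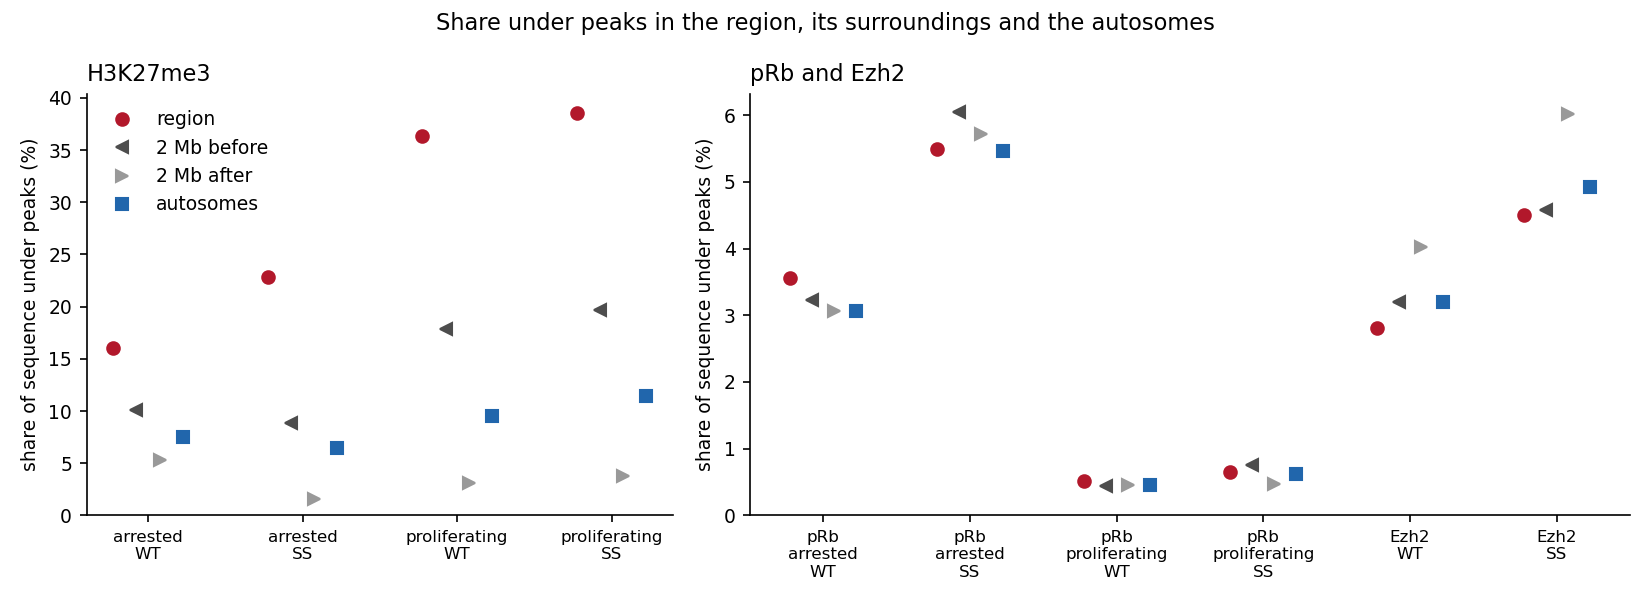
Share of sequence under peaks (vertical axis, percent) for each of the 10 lists, with 1 point each for the region, the 2 Mb before it, the 2 Mb after it and the other autosomes; each point is 1 library and the 2 panels have different scales. In all 4 H3K27me3 lists the region lies above the 3 other points, whereas for pRb and Ezh2 it lies among or below them, or slightly above them in the WT pRb lists.

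The kinds of peak differed among the H3K27me3 lists. The median peak in the region was 1108 bp long in WT and 1186 bp in SS cells when proliferating, 680 bp in arrested SS and 152 bp in arrested WT cells. Peaks over 10 kb numbered 24, 30, 7 and 0 in the same order and supplied 51.9%, 55.1%, 21.5% and 0% of the covered length. The arrested WT list therefore described the region in many short peaks and the other lists in fewer long ones. Ezh2 peaks had a median of 50 bp in WT and 51 bp in SS cells, and pRb medians ran from 146 to 166 bp.

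Within the region the H3K27me3 signal was a sequence of strongly covered blocks and nearly empty ones. Across the 32 steps the covered share ran from 0.796% to 88.4% in proliferating WT cells, with a median of 26.9%, beside a median of 1.67% over 24712 autosomal steps. In proliferating SS cells it ran from 0.318% to 88.7%, with a median of 29.5%. In arrested WT cells it ran from 2.75% to 70.2%, with a median of 11.2%, and in arrested SS cells from 1.03% to 78.5%, with a median of 16.1%. Steps covered to 40% or more numbered 14, 13, 3 and 5 of 32 in these 4 lists, whereas 6.61%, 8.43%, 0.174% and 2.32% of autosomal steps reached that share.

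In both proliferating lists 13 steps were covered to at least 40%, and they formed 5 blocks. The first ran over 500 kb at 34200001-34700000 and was covered to 65.0% (WT) and 69.9% (SS) in proliferating cells and to 19.9% and 34.0% in arrested cells. A single step at 34800001-34900000 had 49.0%, 63.6%, 18.1% and 28.9% in the same order. The next block ran over 400 kb at 35400001-35800000, with 72.0%, 73.2%, 39.6% and 56.0%. It was followed by 200 kb at 36200001-36400000, the most covered block in 3 of the 4 lists, with 80.8% and 84.2% in proliferating and 36.3% and 64.9% in arrested WT and SS cells. A last single step at 36900001-37000000 had 48.3%, 47.8%, 14.6% and 17.4%. Together these blocks made up 40.6% of the region and held 74.9% (WT) and 74.7% (SS) of the proliferating coverage and 71.0% and 77.9% of the arrested coverage.

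Between the blocks lay 4 parts covered to under 20% in both proliferating lists: the first step of the region, and the stretches at 35000001-35200000, 35800001-36200000 and 36600001-36900000. They made up 31.25% of the region and held 4.45% and 4.58% of the proliferating WT and SS coverage, and 9.71% and 4.11% of the arrested WT and SS coverage. The longest stretch with no H3K27me3 peak was 146 kb in both proliferating lists, at 35927274-36073534 in WT and at 35926947-36072505 in SS cells. In arrested SS cells a gap of 120 kb at 35927859-36047858 fell in the same place, but the longest gap of the arrested WT list was 30.4 kb and lay elsewhere, at 34724977-34755346.

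The near edge of the region was a dip within covered sequence, and the far edge came shortly before an almost empty stretch. At the near edge the last step outside, 33900001-34000000, was covered to 21.4% in proliferating WT and 23.7% in proliferating SS cells, and the first step inside it to 2.65% and 2.87%. At the far edge coverage went on for 300 kb: the last step inside had 21.7% and 22.0%, the first outside 15.4% and 17.4%, and the step at 37300001-37400000 had 42.4% and 53.7%. Of the 20 steps after the region 17 were at 0 in proliferating WT and 15 in proliferating SS cells. The arrested WT list had no empty step there, with 2.58% to 18.4% in the 20 steps, and the arrested SS list had 2. The floor of short arrested WT peaks was thus seen outside the region as well as between its blocks.

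**Figure D2:**
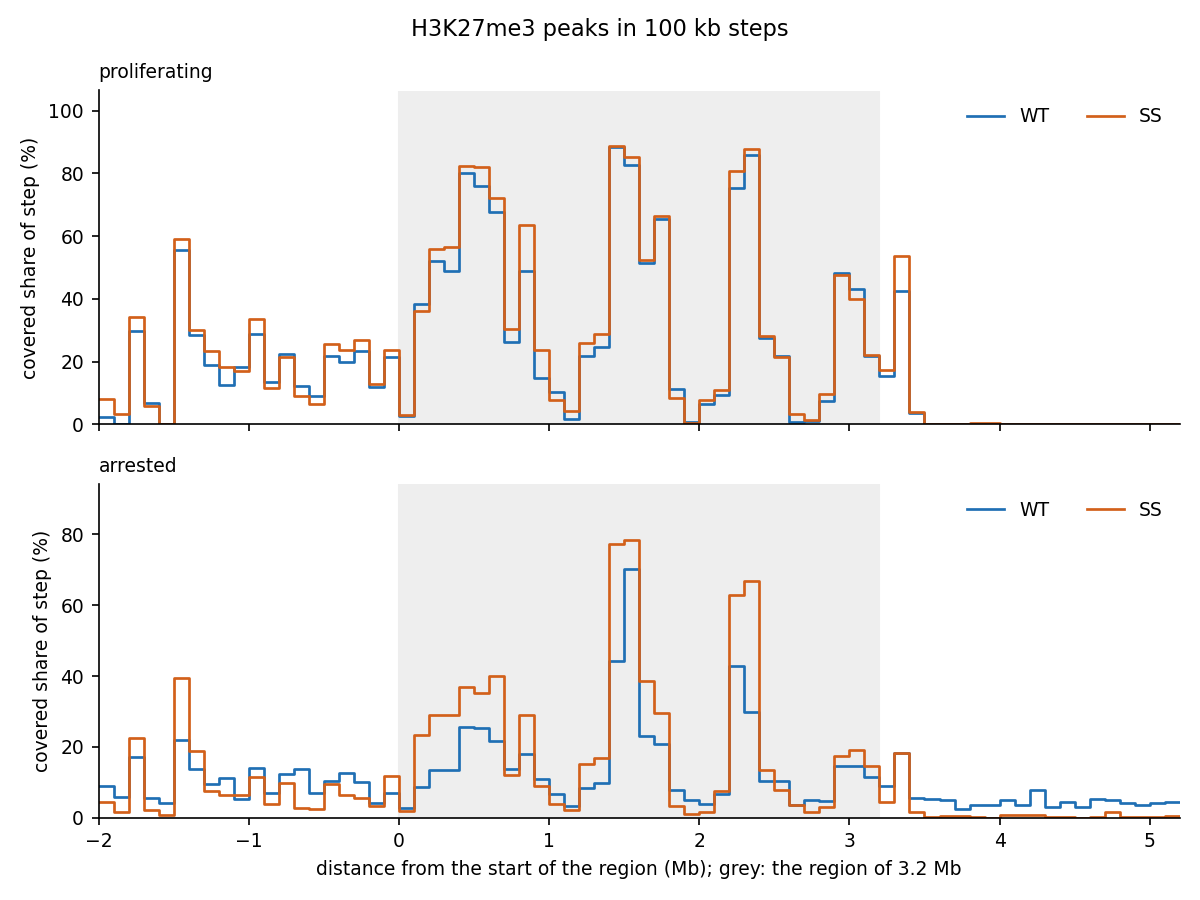
Covered share of each 100 kb step (vertical axis, percent) for H3K27me3 in proliferating (upper) and arrested (lower) cells against distance from the start of the region (horizontal axis, Mb), with WT and SS as separate lines, 1 library each, and the region in grey. The same blocks appear in all 4 lists, the SS line lies above the WT line over most of the blocks in arrested cells, and the proliferating lists are almost empty soon after the far edge.

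The genotypes differed little in H3K27me3 in proliferating cells. SS peaks covered 1.06 times the WT length in the region, against 1.10 times before it, 1.23 times after it and 1.21 times on the other autosomes, and 730 of 751 tiles had a higher ratio. Of the 32 steps 25 were covered more in SS cells, beside 83.4% of the 17563 autosomal steps with at least 0.5% in one list. A step was counted as different when its share in one list was at least 2 times that in the other and at least 0.5% in one of them. By this rule 2 steps were higher in SS cells, beside 28% of autosomal steps, and 1 was higher in WT cells, beside 3.25%. Steps with most of their length covered cannot be 2 times higher in the other list. The median step of the proliferating WT list was covered to 26.9% in the region and 1.67% on the autosomes. These counts thus compare unlike steps, and a share for autosomal steps of like coverage was not taken. All 3 were thinly covered: 1.74% against 4.10% at 35100001-35200000, 0.819% against 3.31% at 36600001-36700000, and 0.796% against 0.318% at 35900001-36000000 in WT and SS cells.

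The largest differences in covered share between proliferating lists lay in 1 place. The step at 34800001-34900000 was covered to 49.0% in WT and 63.6% in SS cells, a difference of 14.7 percentage points that 149 autosomal steps exceeded, and its neighbour at 34900001-35000000 to 14.7% and 23.5%. The largest differences the other way were small, from 43.0% in WT to 39.8% in SS at 37000001-37100000 and from 11.1% to 8.23% at 35800001-35900000. The order of the steps was almost the same in both lists, with a Spearman correlation of 0.990 over 32 steps, which are neighbours and share their libraries. Bases under peaks of both lists came to 1031 kb, or 88.7% of the WT and 83.5% of the SS coverage.

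In arrested cells SS peaks covered 1.43 times the WT length of the region with 0.495 times as many peaks, whereas the ratio was below 1 around it. It was 0.880 before the region, 0.296 after it and 0.862 on the other autosomes, and 50 of 752 tiles had a higher ratio than the region. SS coverage was higher in 20 of 32 steps, beside 22.1% of autosomal steps. It was at least 2 times WT in 4 steps, beside 2.46%, and WT was at least 2 times SS in 4 steps, beside 54.7%. The outcome depended on how peaks were chosen by score. The ratio was 4.17 with the lists cut to equal length, highest scores kept, and 1.85 in the higher-scoring part of each list, cut at its median score. The cut to equal length took the WT list from 1013 to 327 peaks in the region and left all 501 SS peaks. It could thus only raise the ratio. With only peaks of a -log10 q-value of at least 3 kept in both lists, a threshold chosen after the data were seen, SS covered 10.5% and WT 15.2% of the region, a ratio of 0.692. That threshold kept 30980 of the 227847 arrested SS peaks and 566382 of the 656342 arrested WT peaks, and the part played by the different score ranges of these 2 lists was not tested.

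The direction of the arrested difference followed the blocks. In the 21 steps with a mean share of at least 20% in the proliferating lists, SS coverage was the higher in 19, beside 83.2% of autosomal steps of that kind. It was at least 2 times WT in 4 of them, beside 12.3%, and WT at least 2 times SS in 0, beside 1.02%. In the 11 steps under 20% SS coverage was the higher in 1, beside 7.95%, and at least 2 times WT in 0, beside 0.175%, and WT was at least 2 times SS in 4, beside 67.1%. The split therefore held on the autosomes too, and the region's ratio above 1 stood beside its large share of steps of the first kind. Mean shares in the first kind of step in the region were 21.5% (arrested WT) and 33.0% (arrested SS), beside 15.8% and 23.5% on the autosomes. In the second kind they were 5.50% and 3.55%, beside 5.62% and 2.64%.

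The step of largest difference was 36300001-36400000, with arrested shares of 29.8% in WT and 66.8% in SS cells. The 37.1 points between them were exceeded in 34 of 24712 autosomal steps. The step at 35400001-35500000 followed, with 44.3% and 77.3%, exceeded in 75. The steps that were at least 2 times higher in SS cells were the first of these and 3 neighbours around the start of the first block, from 34100001 to 34400000, where the first had 8.75% and 23.3% and the next 13.6% and 29.0%. The largest differences in favour of WT were 7.74% against 3.21% at 35800001-35900000 and 5.10% against 1.03% at 35900001-36000000, both in the longest thinly covered stretch. In percentage points these differences were ordinary, since 4725 and 6365 autosomal steps had a larger one in that direction.

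Most bases under arrested peaks were also under proliferating ones. Of the arrested SS coverage of the region 90.7% was also under proliferating SS peaks, beside 76.0% in the 2 Mb before it and 48.7% in the 2 Mb after it. Of the arrested WT coverage 76.0% was under proliferating WT peaks, beside 38.4% and 11.3%. Arrested coverage was lower than proliferating coverage in both genotypes, with ratios of 0.440 (WT) and 0.593 (SS), beside 0.788 and 0.562 on the other autosomes. Before the region the ratios were 0.565 (WT) and 0.451 (SS), and after it 1.74 and 0.417. At equal list lengths the WT ratio in the region was 0.0569, and at the -log10 q-value threshold of 3 the SS ratio was 0.325. Relative to the autosomal ratio the region thus stood at 0.559 in WT and 1.05 in SS cells. Steps with a mean share of at least 20% in the proliferating lists were also averaged. In WT their proliferating and arrested means were 52.2% and 21.5% in the region, beside 38.2% and 15.8% on the autosomes, much the same proportion. In SS cells they were 55.0% and 33.0%, beside 43.0% and 23.5%. For steps under 20% the WT means were 6.04% and 5.50%, beside 3.10% and 5.62%. The SS means there were 7.28% and 3.55%, beside 4.43% and 2.64%.

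Step by step, arrested WT coverage was higher than proliferating WT coverage in 5 of 32 steps, beside 66.3% of autosomal steps. It was at least 2 times higher in 3, beside 54.9%, and at least 2 times lower in 16, beside 15.9%. The largest difference was at 36300001-36400000, with 86.0% in proliferating and 29.8% in arrested cells, followed by 34400001-34500000, with 80.2% and 25.6%. In SS cells arrested coverage was higher in 3 steps, beside 31%, at least 2 times higher in 1, beside 20.9%, and at least 2 times lower in 13, beside 34.2%. The largest differences there were at 34500001-34600000, with 82.1% and 35.1%, and at 34400001-34500000, with 82.4% and 36.8%. Few autosomal steps had a larger difference in that direction, 18 and 22 for the pair in SS cells and 60 and 88 for the pair in WT cells. In SS cells the first block thus stood at 69.9% in proliferating and 34.0% in arrested cells, and the block at 36200001-36400000 at 84.2% and 64.9%.

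Broad H3K27me3 domains were built by merging the peaks over 10 kb of the proliferating WT and SS lists. The region held 32 of them, 10 per Mb beside 1.75 per Mb on the autosomes, and they took up 761 kb or 23.8% of it beside 3.43% of the autosomes. There were 8 domains in the 2 Mb before the region and 1 in the 2 Mb after it. The median length was 14.1 kb, from 10.1 to 118 kb, and the 4 domains over 50 kb held 42.8% of the domain sequence. A long peak of both genotypes was present in 19 domains, of WT alone in 5 and of SS alone in 8. Domains of 1 genotype were mostly also marked in the other: the domain at 34861147-34878807, called from SS alone, was still covered to 61.8% in proliferating WT cells by 5 shorter peaks.

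The arrested lists did not enter the definition. They covered 39.3% (WT) and 65.9% (SS) of the bases in domains, beside 33.0% and 61.8% in domains elsewhere on the autosomes. SS coverage was the higher in 30 of the 32 domains, beside 94.8% of autosomal domains. The median difference was 26.2 points in the region and 27.7 points outside it, so the domains of the region did as others did. Over all domain bases the difference was 26.6 points. It was 51.6 points at equal list lengths, with SS the higher in all 32 domains. That cut shortened the WT list alone, so it could only raise the difference. At the -log10 q-value threshold of 3 the difference was -0.297 points, with SS the higher in 12.

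The longest domain, at 36262643-36380306, was 118 kb long and ranked 13 in length among 4359 autosomal domains. It was covered to 34.9% by 62 arrested WT peaks and to 75.2% by 25 arrested SS peaks. In proliferating WT cells it was formed by 1 peak of 115983 bp at 36264238-36380220, rank 8 in length of 143252, and in proliferating SS cells by a peak of 96863 bp at 36262643-36359505 and a second one. The next, at 35519929-35613863, was 93.9 kb long and the most covered domain in both arrested lists, with 80.6% in WT and 94.3% in SS cells. Its proliferating peaks had nearly the same ends in both genotypes: the WT peak ran from 35521825 to 35613863. The longest arrested peaks of the region also lay in it, at 35567740-35612175 in SS cells with 44436 bp, rank 7 in length of 227847, and at 35540276-35549296 in WT cells with 9021 bp, rank 15 of 656342.

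The remaining domains over 50 kb were at 35439544-35500512, with 61.0 kb, and at 34370152-34423553, with 53.4 kb. They were covered to 55.0% and 31.1% in arrested WT and to 84.8% and 55.6% in arrested SS cells. The fifth in length, at 34535802-34564018, had 28.2 kb, 31.6% and 52.5%. The 3 domains of largest difference between genotypes were 10.3, 25.7 and 10.5 kb long. Their shares in WT and SS cells were 37.9% against 86.9% at 35620362-35630662, 39.8% against 87.1% at 35411926-35437655, and 34.3% against 78.5% at 34648981-34659431. At the other end, WT was the higher by 24.9% against 17.5% at 34453920-34464590 and level with SS at 36946671-36958965, with 33.8% and 33.5%, both domains with a long peak in proliferating WT cells alone. At 34584710-34600286, also long in WT alone, the shares were 35.9% and 42.2%. The remaining domains long in WT alone had a larger SS excess. Their shares were 35.8% and 58.1% at 35635570-35646214, and 22.7% and 39.8% at 36486506-36498230.

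**Figure D3:**
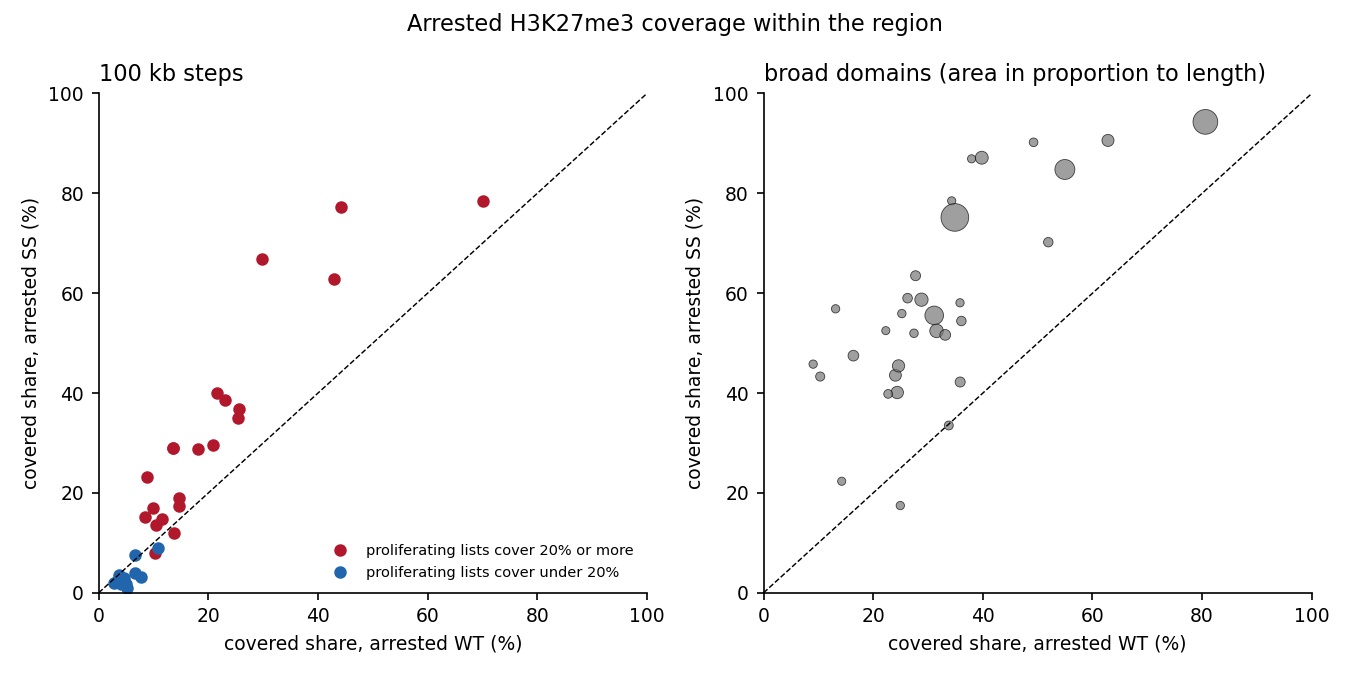
H3K27me3 covered share in arrested WT (horizontal axis, percent) and arrested SS cells (vertical axis, percent) for the 32 steps (left, coloured by their mean share in the proliferating lists) and the 32 broad domains (right, point area in proportion to length), 1 library per genotype; the dashed line marks equal shares. Of the domains 30 lie above the line, as do 19 of the 21 steps with 20% or more in proliferating cells and 1 of the 11 others.

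pRb coverage was longer in SS cells, by less than on the autosomes. In arrested cells the length under SS peaks was 1.55 times that under WT peaks, less than the 1.87 times on each side and the 1.78 times on the other autosomes, and 685 of 752 tiles had a higher ratio. SS coverage was higher in 29 of 32 steps, beside 95.1% of autosomal steps, and at least 2 times WT in 7, beside 37.5%. No step was at least 2 times higher in WT, beside 0.0792%. With both lists cut to the same number of peaks by score the ratio was 0.829, so the direction changed with the length of the lists. In proliferating cells the ratio was 1.25, beside 1.36 on the autosomes. Of 25 steps with enough coverage SS was the higher in 17, beside 68.1%, and at least 2 times WT in 8, beside 36%, and WT at least 2 times SS in 3, beside 11.3%. At equal list lengths this ratio was 0.917.

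Arrested pRb lists covered more of the region than proliferating ones, as they did on the autosomes. The ratio was 6.81 in WT and 8.39 in SS cells, beside 6.72 and 8.81 on the other autosomes. Arrested coverage was at least 2 times higher in 31 of 32 steps in WT, beside 98.7% of autosomal steps, and in all 32 in SS cells, beside 99.8%. It was at least 2 times lower in 0 steps, beside 0% in WT and 0.0125% in SS cells. At equal list lengths the ratios were 0.917 in WT and 0.969 in SS cells. The exception in WT was the first step of the region, with 0.903% in proliferating and 1.67% in arrested cells.

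Ezh2 coverage was 1.60 times as long in SS as in WT cells, beside 1.43 times before, 1.50 times after and 1.54 times on the other autosomes. SS was the higher in 29 of 32 steps, beside 94.3% of autosomal steps, and at least 2 times WT in 9, beside 17.9%. No step was at least 2 times higher in WT, beside 0.0251%. At the -log10 q-value threshold of 3, which left 87 WT and 347 SS peaks in the region, the ratio was 5.39. At equal list lengths it was 1.18, and divided by the autosomal ratio 1.04. With shares scaled by the autosomes 6.25% of the steps differed by 2 times, against 28.1% unscaled. The largest difference in favour of WT was at 34200001-34300000, with 2.61% in WT and 1.93% in SS cells.

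A single step stood out in several lists. The step at 35500001-35600000, which holds most of the 93.9 kb domain, was the most covered of all 24712 autosomal steps in the arrested WT H3K27me3 list, with 70.2%. It ranked 22 in arrested SS, 116 in proliferating WT and 132 in proliferating SS cells. The same step had the largest difference between SS and WT of the region for arrested pRb, proliferating pRb and Ezh2. Arrested pRb covered it to 4.42% with 18 peaks in WT and to 10.5% with 40 peaks in SS cells, and 278 autosomal steps had a larger difference. The SS share ranked 82 of 24712. Proliferating pRb covered it to 0.562% with 4 peaks and 1.63% with 8, and 562 autosomal steps had a larger difference. Ezh2 covered it to 2.47% with 18 peaks and 6.50% with 48, and 830 had a larger difference. By Ezh2 share the step ranked only 19623 in WT and 3254 in SS cells. By pRb share it ranked 1954 in arrested WT, 8133 in proliferating WT and 269 in proliferating SS cells. These values are of single libraries, and the input coverage of this step was not analysed here.

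Within the region the longest pRb peaks of both SS lists lay in this step. They were at 35574107-35574924 with 818 bp in arrested and at 35569112-35569557 with 446 bp in proliferating cells. The longest WT pRb peaks of the region lay in other steps. They were at 34528857-34529592 with 736 bp in arrested and at 35648421-35648650 with 230 bp in proliferating cells. The arrested SS peak was long but weak, with rank 573993 of 650383 by the authors' score. The region's peak of highest score in the arrested SS list, rank 865 of 650383, was at 35428163-35428388, overlapping peaks of all 4 H3K27me3 lists. That in the arrested WT list, rank 241 of 424588, was at 36072511-36072649, in a thinly covered stretch. It overlapped a peak of 1 other list, that of H3K27me3 in proliferating SS cells. The step at 36800001-36900000 had the second largest SS difference for arrested pRb, with 3.19% and 7.83%, and for Ezh2, with 4.14% and 7.56%. It was a thinly H3K27me3-covered step, with 7.39% in proliferating WT cells, and proliferating pRb went the other way there, with 0.626% in WT and 0.0890% in SS cells. Its neighbour at 36900001-37000000 held 0.760% proliferating pRb coverage in WT and no peak in SS cells, within a stretch of 199 kb without a peak at 36846482-37045143.

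**Figure D4:**
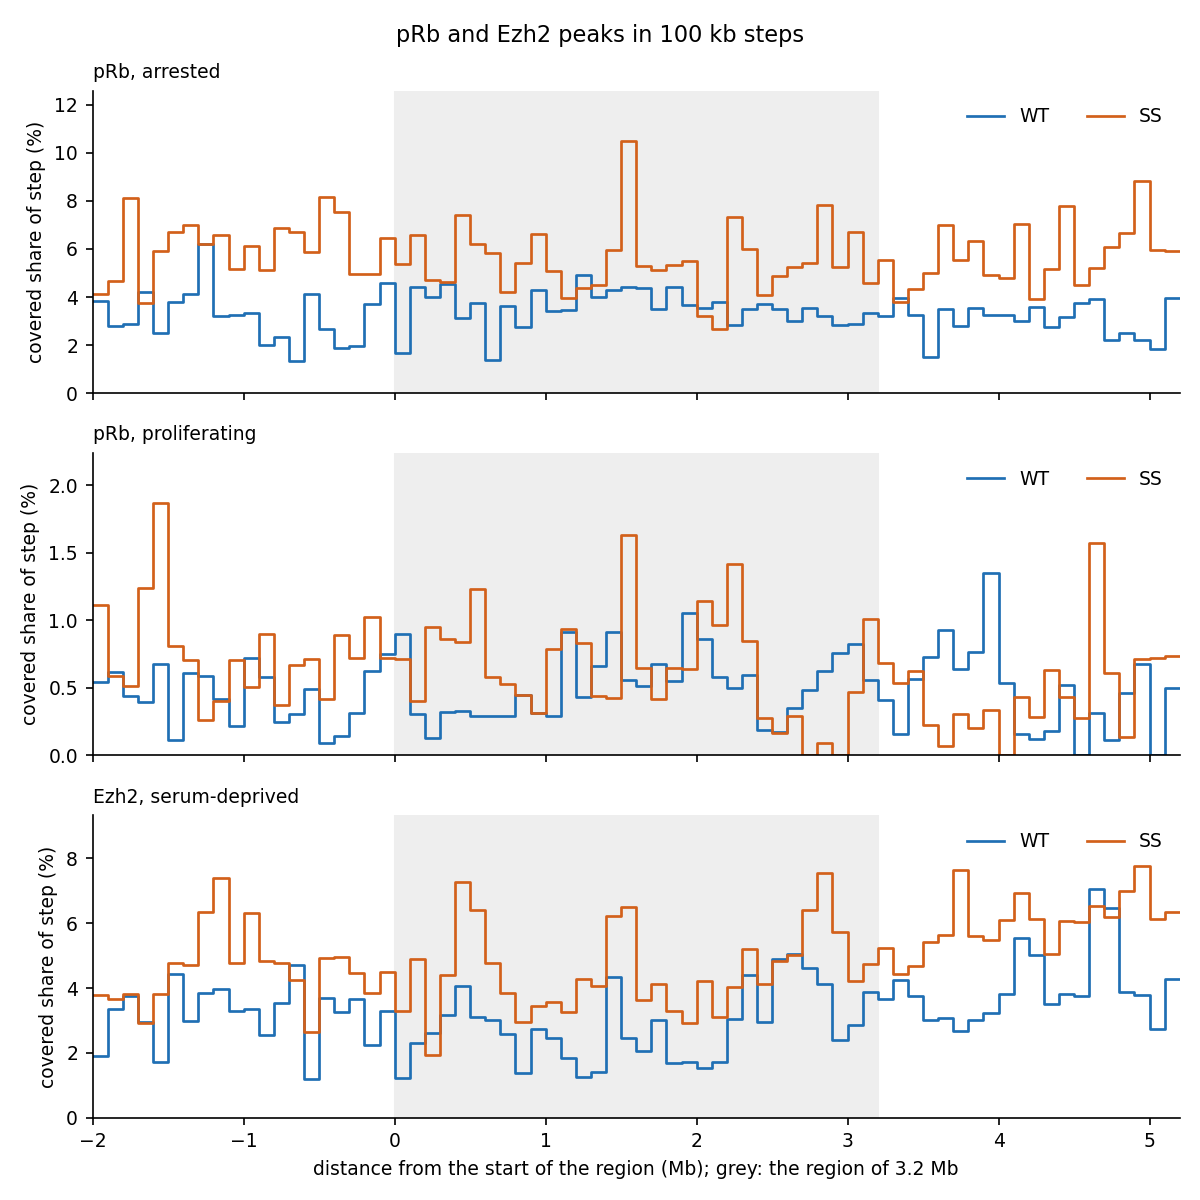
Covered share of each 100 kb step (vertical axis, percent, with its own scale in each panel) for arrested pRb, proliferating pRb and serum-deprived Ezh2 lists against distance from the start of the region (horizontal axis, Mb), with WT and SS as separate lines, 1 library each, and the region in grey. Coverage is spread over the region and its surroundings with no blocks, and the SS lines of the upper and middle panels have their highest step of the region 1.5 Mb into it, at 10.5% and 1.63%.

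Ezh2 coverage was higher inside the broad domains than in the rest of the region, and pRb coverage was equal or slightly higher there. Ezh2 coverage inside the domains of the region relative to that outside was 1.37 (WT) and 1.43 (SS), beside 1.09 and 1.08 for the domains of all autosomes. The shares were 3.54% inside and 2.59% outside in WT, and 5.84% and 4.09% in SS cells. Both sides of the region combined had 3.61% (WT) and 5.30% (SS), and the other autosomes 3.20% and 4.92%. For arrested pRb the inside over outside ratio was 1.00 in WT and 1.20 in SS cells, beside 1.17 and 1.04. For proliferating pRb it was 1.10 and 1.16, beside 1.04 and 1.15. Ezh2 was from serum-deprived cells. Its Spearman correlation with arrested H3K27me3 of the same genotype across the 32 steps was 0.303 (WT) and 0.310 (SS). Over autosomal steps it was 0.192 and 0.128. With proliferating H3K27me3, from a different growth condition, it was 0.255 and 0.335, beside 0.0345 and 0.0544 over autosomal steps. The correlation of arrested pRb with arrested H3K27me3 was 0.0433 in WT and 0.409 in SS cells, beside 0.259 and 0.107. Steps are neighbours and share their libraries, so these values are descriptions.

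Few WT peaks of pRb and Ezh2 met an SS peak, about as few as on the other autosomes. Most proliferating and fewer arrested WT H3K27me3 peaks did. An overlap of at least 1 bp with an SS peak was found for 249 of 308 proliferating WT H3K27me3 peaks, or 80.8% (95% Wilson interval 76.1 to 84.8), beside 68.8% on the other autosomes. For arrested H3K27me3 it was 436 of 1013, or 43.0% (40.02 to 46.1), beside 15.9%. For arrested pRb it was 64 of 582, or 11.0% (8.71 to 13.8), beside 11.1%, and for Ezh2 112 of 894, or 12.5% (10.5 to 14.9), beside 11.5%. For proliferating pRb 1 of 114 peaks overlapped, or 0.877% (0.155 to 4.80), beside 1.70%. Counted from the SS lists, 73.4% of proliferating H3K27me3 peaks met a WT peak, beside 50.1%, and 58.7% of arrested ones, beside 38.2%. The SS shares were 7.96% for arrested pRb, beside 7.24%, and 8.33% for Ezh2, beside 8.15%. For proliferating pRb the SS share was 0.719%, beside 1.25%. The intervals cover counting error alone and treat peaks as independent. Long SS peaks cover more of the region, and the part of this in the H3K27me3 shares was not tested.

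Arrested pRb peaks overlapped arrested H3K27me3 peaks in 128 of 582 cases in WT, or 22.0% (18.8 to 25.5), and in 254 of 804 cases in SS cells, or 31.6% (28.5 to 34.9). On the other autosomes the shares were 13.7% and 9.24%. These stand beside the share of sequence under arrested H3K27me3 peaks, 16.0% and 22.9% in the region and 7.47% and 6.43% on the other autosomes. Overlap with Ezh2 peaks was found for 8.76% (6.73 to 11.3) of arrested pRb peaks in WT and 14.1% (11.8 to 16.6) in SS cells, beside 10.5% and 16.7%. Of all bases of the region 45.3% lay under no list, 8.56% under all 4 H3K27me3 lists and 0.188% under 6 or more of the 10 lists.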

How the data were processed

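Peak lists of 10 immunoprecipitated libraries were used, grouped by sample title. The build was mm9, and Bowtie2, bedtools, HOMER and MACS2 were used, per the submitters' processing notes; versions, roles, settings and the control were not given in the sources used here. Chromatin was fixed with EGS and formaldehyde and sonicated, per the labels' protocols. Peaks were called per library, since each has its own list. The 4 deposited pRb lists give a score per peak, with a lowest score of 20 and no stated unit. The 6 other deposited lists have a MACS2 layout with 9 columns, in which the authors' caller gave a score, a fold enrichment (a ratio), and a p-value and q-value as −log10; the score was within 1 of 10 times the −log10 q-value in every peak. Deposited scores were used only to rank or filter peaks. A library with more reads can yield more and weaker peaks, and neither depth nor settings can be corrected from the lists.

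Covered length is the bases under peaks, clipped to the region, step, tile or domain. Autosomes means all autosomes outside the region, except that counts of autosomal steps and domains include it. Steps were compared by a ratio of at least 2 where one share was at least 0.5%. Shares of autosomal steps in these comparisons, also of steps merely higher in one list, are of those passing that 0.5% minimum. Ranks of steps and counts of larger differences are of all 24712. No test was made, since each group is 1 library. Shares of peaks have Wilson 95% intervals. Steps named are, per list, the 2 most and 2 least covered and, per comparison, the 2 largest differences each way. Peaks named are, per list, the longest and the highest-scoring that lie in the region. Domains named are the 5 longest and the 3 with the largest difference each way. The blocks, stretches, edge steps, gaps and steps counted as different lie outside this rule and were chosen after their values were seen, as were a few domains and the leading step's list. The region, the domains and the comparisons were chosen with earlier results of these data known. The coverage and overlap steps were tested on simulated lists. Alternatives were the higher-scoring part of each list, peaks of at least 500 bp, equal list lengths, scaling by the autosomes, 5 Mb of surroundings, other steps, other domain rules and a reciprocal overlap of 50%. The gene table and promoter sequences belong to GRCm38.p6, so no sequence is printed and no peak was assigned to a gene. Scripts ran under Python 3.11.15 with pandas 2.3.3, scipy 1.17.1, numpy 2.4.6 and matplotlib 3.10.9.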

Additional observations from a re-analysis of the deposited data

Results flagged for a closer look

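Each result here is a ratio of covered length in the region divided by the same ratio on the other autosomes, and each pair moved in opposite directions from 1 in single libraries. The difference between the members of a pair was not tested. For H3K27me3, SS over WT stood at 1.66 in arrested and 0.879 in proliferating cells. For H3K27me3, arrested over proliferating stood at 0.559 in WT and 1.05 in SS cells. Steps with a mean share of at least 20% in the proliferating lists numbered 21 of 32 in the region and 4517 of 24712 on the autosomes. In such steps the arrested means were 21.5% in WT and 33.0% in SS cells, beside 15.8% and 23.5% on the autosomes. The proliferating means were 52.2% and 55.0%, beside 38.2% and 43.0%. The part of the region's larger share of such steps in these ratios was not tested. For pRb, arrested over proliferating stood at 1.01 in WT and 0.952 in SS cells, both close to 1. The arrested WT H3K27me3 list enters both H3K27me3 pairs; its median peak in the region was 152 bp long, against 680 to 1186 bp in the other 3, and its part in these results was not tested.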

How the results depend on the processing

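Of 120 alternative values 59 were counted as the same, 49 as moved and 12 as changed in direction. For most results the same meant lying within an interval drawn from the main value's counts of peaks, steps or domains. This is a loose rule where counts are small. Sharing of proliferating pRb at 1.69% instead of 0.877%, and 24 domains instead of 32, were counted as the same. Where a cause is not part of the setting itself, the cause was not tested. No paired analysis was possible because each group has 1 library. Scaled by the autosomes, the SS over WT ratio was 0.869 for arrested pRb (reversed), 0.925 for proliferating pRb (reversed), 1.66 for arrested H3K27me3, 0.879 for proliferating H3K27me3 (reversed) and 1.04 for Ezh2; the arrested over proliferating ratio was 1.01 for pRb WT, 0.952 for pRb SS (reversed), 0.559 for H3K27me3 WT and 1.05 for H3K27me3 SS (reversed). Steps that differed by 2 times after that scaling were 6.25% for arrested pRb and for Ezh2 between genotypes, and 21.9% for pRb WT, 28.1% for pRb SS and 9.38% for H3K27me3 SS between growth conditions, against 21.9%, 28.1%, 96.9%, 100% and 43.8% unscaled.

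At equal list lengths the genotype ratio was 0.829 for arrested and 0.917 for proliferating pRb (both reversed), 4.17 for arrested H3K27me3 and 1.18 for Ezh2. The growth ratio was 0.917 for pRb WT and 0.969 for pRb SS (both reversed) and 0.0569 for H3K27me3 WT. The arrested difference over the domains was 51.6 points. Each such cut shortened only the longer list of a pair, so the coverage of that list could only fall. At the −log10 q-value of 3, chosen after seeing the data, the genotype ratio was 0.692 for arrested H3K27me3 (reversed), 1.24 for proliferating H3K27me3 and 5.39 for Ezh2, the growth ratio 0.584 for H3K27me3 WT and 0.325 for H3K27me3 SS, and the domain difference -0.297 points (reversed) against 26.6.

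In the higher-scoring part of each list the genotype ratio of arrested H3K27me3 was 1.85, and the growth ratios were 4.85 for pRb WT, 6.76 for pRb SS and 0.312 for H3K27me3 WT. The ratio of the region to its surroundings was there 0.988 for arrested WT pRb (reversed, from 1.13), 2.45 and 6.19 for arrested WT and SS H3K27me3 and 0.778 for SS Ezh2. WT peaks met SS peaks in 6.72% for arrested pRb and 7.14% for Ezh2, and arrested pRb met Ezh2 in 5.53% in WT and 6.13% in SS, and H3K27me3 in 13.4% in WT and 20.6% in SS cells. With peaks of at least 500 bp the genotype ratio was 1.79 for arrested H3K27me3 and 8.50 for Ezh2, the growth ratio of H3K27me3 WT 0.335, and the ratio to the surroundings 1.79 for arrested WT pRb, 2.95 for arrested WT H3K27me3 and 0.137 for WT Ezh2; no proliferating pRb peak was that long, so ratios with these lists gave no value. With 5 Mb on each side the ratio for arrested SS H3K27me3 was 3.20.

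At a reciprocal overlap of 50% sharing between genotypes was 2.92% for arrested pRb, 4.74% for arrested H3K27me3, 36.0% for proliferating H3K27me3 and 2.24% for Ezh2, and that of arrested pRb 1.89% with Ezh2 and 2.92% with H3K27me3 in WT, and 2.24% and 1.37% in SS cells. Peaks over 5 kb gave 61 domains. Steps of 200 kb gave 100% for pRb WT and 75% for H3K27me3 WT between growth conditions, and steps shifted by 50 kb gave 100% for pRb WT. Depth, input and mappability could not be read from the lists and limit every value.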
